A study of Mus musculus with 29 samples.

Results

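The branched-chain amino acids leucine, isoleucine and valine share the first steps of their breakdown, and 10 genes of that route were followed in brown adipose tissue (BAT) and gastrocnemius skeletal muscle (SkM) of mice under calorie restriction (CR), treadmill exercise training (EX) or both (CREX). The members were Bcat2, Bckdha, Bckdhb, Dbt, Bckdk, Ppm1k, Ivd, Mccc1, Hibadh and Hibch, chosen by gene symbol, and all 10 were found among the 24770 symbols of the count table. All mice were male wild-type C57BL/6J. Interventions began at 8 weeks of age and lasted 8 weeks, and tissues were taken after a 6 h fast. Control mice ate chow freely and stayed sedentary, CR mice were brought down stepwise to 70% of the freely eaten amount, EX mice ran on a treadmill with free access to chow, and CREX mice had the reduced food and the running, with both running groups sampled 24 h after their last bout.

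BAT gave 15 libraries, of 3 control, 4 CR, 4 EX and 4 CREX samples, and SkM gave 14, of 4 control, 3 CR, 4 EX and 3 CREX samples. Library totals spanned 21047242 to 24919377 counts for BAT, 23050918 to 23425284 for SkM, and the lowest count of any member in any library was 258 in BAT and 61 in SkM. The labels number the libraries without tying BAT to SkM of one mouse, so p-values measure the spread between libraries. Tissue comparisons treat the libraries of BAT and SkM as independent, though some may come from the same mouse. Ucp1, the uncoupling protein that defines brown fat, was at 1373 CPM (counts scaled to library size with TMM factors) or more in every BAT library and at 0 in 12 of 14 SkM libraries, whereas the muscle actin gene Acta1 was at 21534 CPM or more in every SkM library. RNA of muscle genes also reached BAT libraries to unequal extents, with the sum of 10 skeletal muscle marker genes between 3.01 and 5909 CPM across BAT. In SkM, CREX replicates 2 and 3 stood apart, with slow fibre scores (mean log2 of CPM + 1 over 7 genes) of 3.27 and 1.87 against 4.61 to 7.98 in the other libraries, and with the lowest scores of 8 mitochondrial genes, 9.18 and 9.21 against 9.50 to 9.89. Member results for SkM CREX against EX, the main effect of CR and its interaction with EX are given with and without them. So is the tissue difference in trained mice. All other results that hold these libraries, among them genes outside the members, marker genes and correlations, are given only with them.

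Breakdown of the branched-chain amino acids starts with the reversible transfer of the amino group, and the resulting ketoacids are then committed to oxidation by the branched-chain ketoacid dehydrogenase complex in the mitochondrial matrix. The complex is switched off by a dedicated kinase and on by a dedicated phosphatase, and the routes of leucine, isoleucine and valine part after it. Skeletal muscle is known as a main site of the first transfer, and brown fat takes up and oxidizes these amino acids when it makes heat.

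Bcat2, on chromosome 7 at 45570153 to 45589711 (plus strand, mm10), encodes the mitochondrial branched-chain aminotransferase of the first step. Bckdha (chromosome 7, 25629946 to 25658981, minus strand) and Bckdhb (chromosome 9, 83925145 to 84124240, plus strand) encode the alpha and beta chains of the E1 decarboxylase, and Dbt (chromosome 3, 116513070 to 116549981, plus strand) encodes the E2 core on which the complex is built. Bckdk (chromosome 7, 127904082 to 127910221, plus strand) encodes the kinase that inactivates the complex, and Ppm1k (chromosome 6, 57506502 to 57535468, minus strand) the phosphatase that reactivates it. Ivd (chromosome 2, 118861954 to 118882909, plus strand) encodes isovaleryl-CoA dehydrogenase, and Mccc1 (chromosome 3, 35959312 to 36000678, minus strand) the biotin-carrying subunit of methylcrotonyl-CoA carboxylase, both of leucine breakdown. Hibch (chromosome 1, 52844929 to 52920986, plus strand) and Hibadh (chromosome 6, 52546228 to 52640389, minus strand) encode the hydrolase and the dehydrogenase of consecutive valine steps. Exons of Bcat2 overlap the antisense gene 0610005C13Rik by up to 247 bases, and those of Mccc1 overlap the antisense genes B230207O21Rik and Mccc1os by up to 198 bases. Whether counting used strand is not given in the sources used here, so reads in those stretches cannot be assigned to one gene.

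Bcat2, Bckdha, Ivd and Hibch all passed the test for the main effect of CR in both tissues, with opposite signs, and the bases before the start sites of Bcat2, Ivd and Hibch are shown so that the promoters of genes moving together can be set side by side. Bckdha is not printed, since GENCODE places exon sequence in most of its window. They are from RefSeq's promoter windows (GRCm38.p6, the same assembly as mm10), written 5' to 3' in the direction of transcription and ending before the first annotated exon base of RefSeq or GENCODE, with chr7:45569903-45570152 for Bcat2, chr2:118861744-118861953 for Ivd and chr1:52844788-52844928 for Hibch. Capitals mark the letters CACCC, which Krüppel-like factors can bind, and GGGCGG, the GC box, read on both strands.
Bcat2: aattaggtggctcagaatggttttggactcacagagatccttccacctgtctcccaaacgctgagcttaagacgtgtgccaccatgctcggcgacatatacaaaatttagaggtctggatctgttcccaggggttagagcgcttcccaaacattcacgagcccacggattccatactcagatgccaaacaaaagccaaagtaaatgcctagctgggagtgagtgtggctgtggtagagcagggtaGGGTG
Ivd: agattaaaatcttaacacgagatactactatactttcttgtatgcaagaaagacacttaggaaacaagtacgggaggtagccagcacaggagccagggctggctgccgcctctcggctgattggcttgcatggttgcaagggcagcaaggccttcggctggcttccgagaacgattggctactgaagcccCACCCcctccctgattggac
Hibch: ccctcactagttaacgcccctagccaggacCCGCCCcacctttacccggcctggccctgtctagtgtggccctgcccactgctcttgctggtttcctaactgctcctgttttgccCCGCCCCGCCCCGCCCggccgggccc
The printed stretch of Bcat2 held 1 CACCC match and no GC box, that of Ivd likewise 1 and none, and that of Hibch no CACCC match and 4 GC box matches, the last 3 of which run into one another and overlap no CACCC match. Their GC contents were 50.4%, 52.9% and 68.8%. Over full windows of 250 bases before to 50 after a start, 9 members had an entry, all except Dbt, with 11 windows between them. CACCC was found in 6 of these 11 windows against 57.5% of all 32851 windows, and the GC box in 5 of 11 against 35.7%. TGACG, the core of the cAMP response element, was found in 1 of 11 against 20.8% of windows. Neither AAGGTCA, a site of estrogen-related receptors, nor the E-box CACGTG was found in a member's window, and they occur in 4.72% and 7.15% of all windows. A match is only a run of letters in these windows.

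To compare the genes with one another, CPM normalized over both tissues together was divided by the kilobases of merged exons. The SDs below hold the spread between libraries, not the error of taking merged exons as transcript length. In control BAT the highest levels per kilobase were those of Bckdha at 194 ± 5.78 (SD, n = 3) and Hibadh at 175 ± 11.5, followed by Hibch at 103 ± 3.41. Ivd, Bckdhb and Mccc1 came next at 50.8 ± 3.31, 45.9 ± 4.71 and 41.4 ± 1.32, neighbours whose means lay within the sum of their SDs. Dbt at 28.7 ± 1.08 and Bckdk at 28.3 ± 0.722 also lay within the sum of their SDs, Bcat2 stood at 23.0 ± 1.01, and Ppm1k was the lowest at 2.12 ± 0.151. In control SkM Bckdha at 84.2 ± 4.77 (SD, n = 4) and Hibadh at 73.6 ± 6.39 again led, within the sum of their SDs, and Bckdk came next at 53.4 ± 5.01 CPM per kilobase. Ivd followed at 35.1 ± 2.23, Bcat2 at 21.02 ± 1.64, Hibch at 16.2 ± 1.01, Bckdhb at 13.7 ± 1.26, Mccc1 at 10.6 ± 0.520, Dbt at 7.38 ± 0.685 and Ppm1k at 1.70 ± 0.117. Thus the kinase ranked above the aminotransferase in both tissues. It ranked above the E2 core in SkM, while in BAT both means lay within the sum of their SDs. These ranks hold for this measure of length only.

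**Figure D1:**
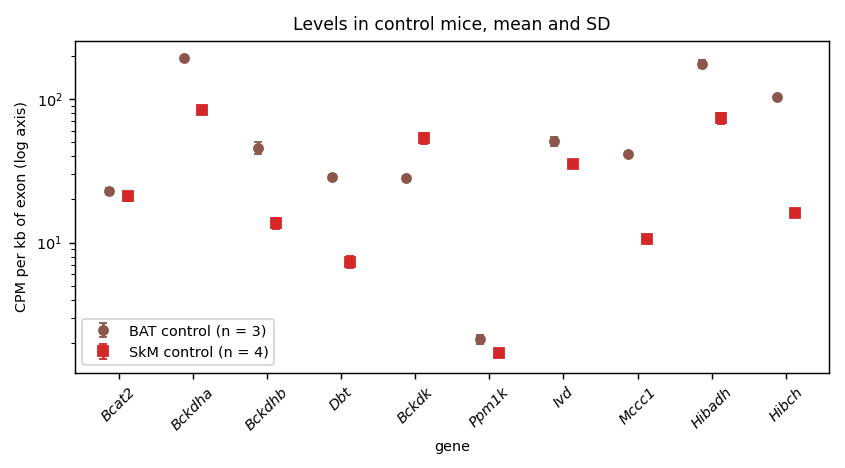
Level of each member in control mice, in CPM per kilobase of merged exons on a log axis, with the mean and SD of 3 BAT libraries (circles) and 4 SkM libraries (squares). Bckdha and Hibadh lead in both tissues, Ppm1k is lowest in both, and Bckdk is the gene whose SkM level clearly exceeds its BAT level.

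Between the tissues of control mice, 8 of the 10 members were higher in BAT, 1 was higher in SkM and 1 did not pass. Among all 13797 genes tested in this comparison 37.2% were higher and 37.7% lower in BAT, so tissue differences were common, and 60.0% passed with a fold above 1.5 as 7 members did. The widest difference was that of Hibch, with a log2 fold change (BAT over SkM) of 2.64 (SE 0.09, adjusted p = 1.61e-10 by edgeR's quasi-likelihood test), followed by Dbt at 1.93, Mccc1 at 1.93 and Bckdhb at 1.72. Hibadh and Bckdha were 1.22 and 1.18 higher on the log2 scale, Ivd 0.50 and Ppm1k 0.29 (adjusted p = 0.0226). Bckdk went the other way, at -0.95 (SE 0.10, adjusted p = 3.21e-06). The control levels of Bcat2 overlapped between tissues, and its difference of 0.10 did not pass (adjusted p = 0.321). With library totals alone as the scale the median of all genes moved by 0.33 toward BAT and Bcat2 passed as well, making 10 of 10. Of 25 tested genes of a wider list of 26 (amino acid carriers, further steps of the 3 routes, propionate use and regulators), 19 were higher in BAT and 5 in SkM. The propionyl-CoA carboxylase subunits Pcca and Pccb were 2.25 and 2.27 higher in BAT on the log2 scale, and Echs1, an enoyl-CoA hydratase, was 2.46 higher. The plasma membrane carriers Slc43a1, Slc7a8 and Slc7a5 were lower in BAT by log2 differences of -2.70, -2.11 and -4.75. Without control BAT replicate 1, the control BAT library with a muscle score above 5, 9 members passed as before.

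The first question on the interventions is what CR did in BAT of sedentary mice. Bcat2 was the member with the clearest rise. Its level was 60.4, 61.9 and 65.9 CPM in the 3 control libraries and 94.7, 109.8, 102 and 97.8 CPM in the 4 CR libraries. Every CR library lay above every control library, and the mean went from 62.7 ± 2.87 to 101 ± 6.57 CPM (SD, n = 3 and 4). The log2 fold change was 0.69 (SE 0.08, adjusted p = 0.000318), a rise of 61.3%. Bcat2 was the only member that was also a differentially expressed gene (DEG) by a fold above 1.5, as were 10.7% of the 13323 genes tested.

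Ivd, for the step after the complex on the leucine route, was at 202, 193 and 219 CPM in control and at 248, 258, 261 and 233 CPM in CR libraries, with no overlap. It rose by 22.3% (log2 fold change 0.29, SE 0.07, adjusted p = 0.0189). Hibadh, for the valine route, was at 367, 325 and 360.1 CPM in control against 400.3, 432, 394 and 400.4 CPM in CR, again with no overlap. It rose by 16.1% (log2 fold change 0.22, SE 0.07, adjusted p = 0.0484), close to the threshold. In all, 3 of 10 members rose and none fell, against 9.99% of all genes higher and 10.9% lower. The median log2 fold change was 0.13 over the members and 0.00 over all genes. Overlap of groups was not counted over all genes. Hibch did not overlap between groups, at 209, 203 and 217 against 245, 230.5, 235 and 231 CPM, but its log2 fold change of 0.17 did not pass (adjusted p = 0.0744). Among the rest, Bckdha was at 0.18 (adjusted p = 0.121), and Bckdhb, Dbt, Bckdk, Ppm1k and Mccc1 lay between -0.12 and 0.10.

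Bcat2 was called in all 18 alternative fits of this comparison, between 0.64 and 0.73, whereas Ivd passed in 11 and Hibadh in 5 of them. Ivd was lost without control replicate 1 or 2, and Hibadh without any one of the 7 libraries except CR replicate 3. Muscle marker sums ran from 3.01 to 630.3 CPM in control and from 18.3 to 1349 CPM in CR libraries, with no marker gene at 0 in a library and none of the 10 past the test. In the same comparison 2 of 8 brown adipocyte, 2 of 5 macrophage and 2 of 5 endothelial marker genes were lower. With the 3 libraries of a muscle score above 5 left out the Bcat2 value was 0.68 (adjusted p = 0.0017), and it was then the only member past the test. In whole tissue, fewer cells of a type and less RNA per cell cannot be told apart.

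**Figure D2:**
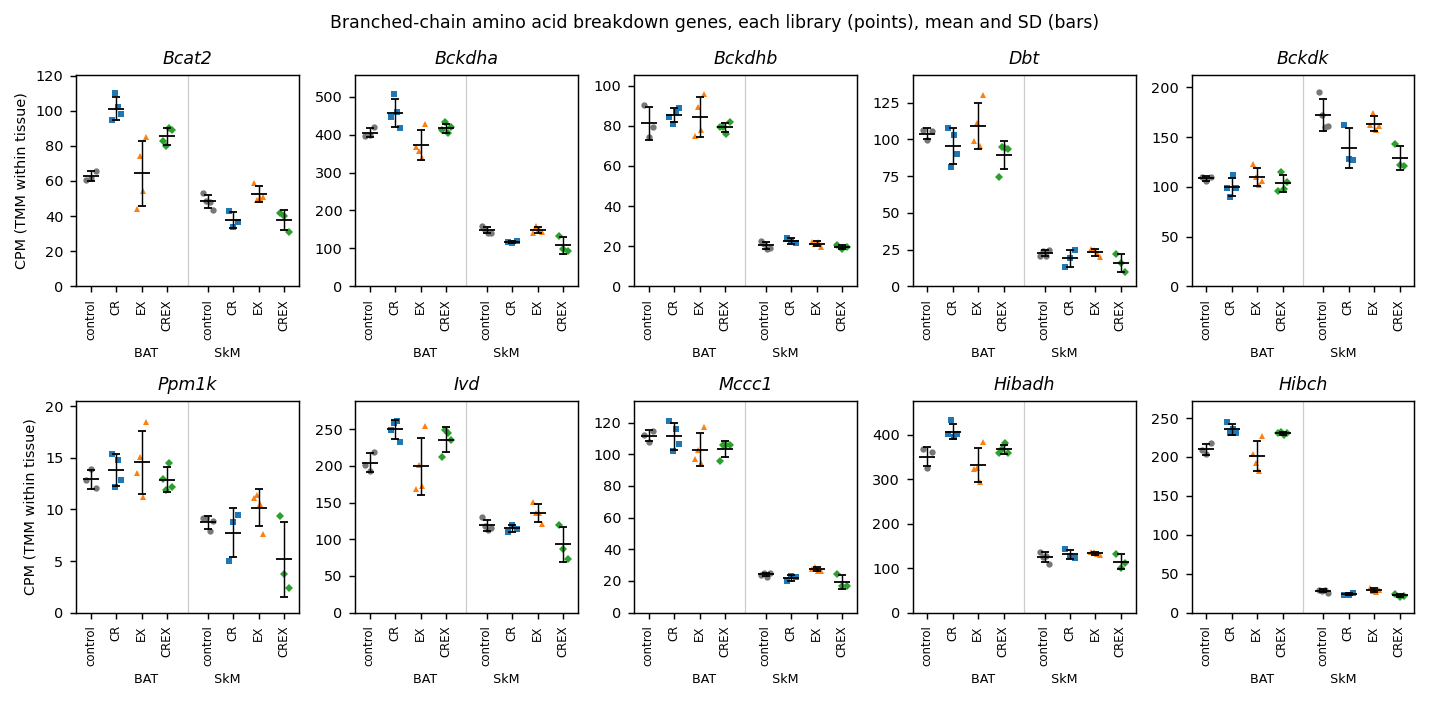
CPM of each member in every library (points), with the mean and SD of each group (bars), for BAT on the left and SkM on the right of each panel. Bcat2 is higher in all CR than in all control libraries of BAT and lower in all CR than in all control libraries of SkM, and Ppm1k shows SkM CREX replicates 2 and 3 at 3.74 and 2.42 CPM.

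In trained mice, CREX was compared with EX, and no member passed in BAT, against 3.71% of 13251 genes higher and 4.30% lower. At an unadjusted p under 0.05, for which the share of all genes is not given here, there were 2 members, Hibch and Dbt. DESeq2 on the same libraries called 0. Bcat2 was at 43.9, 73.9, 54.3 and 85.0 CPM in EX and at 82.8, 80.1, 90.3 and 88.8 CPM in CREX libraries. The CREX values were tight and the EX values widely spread, with EX replicate 4 inside the CREX range, and the log2 fold change of 0.41 (SE 0.19) had an adjusted p of 0.216. Hibch did not overlap, at 203, 192, 182 and 227 CPM in EX against 231, 232, 228 and 230.5 CPM in CREX (log2 fold change 0.19, adjusted p = 0.137). Dbt did not overlap in the other direction, at 99.2, 111, 95.7 and 129.9 CPM in EX against 74.6, 94.7, 94.1 and 93.5 CPM in CREX (-0.29, adjusted p = 0.131). For this pair of groups too, overlap was not counted over all genes. Without EX replicate 4, the EX library with the least muscle RNA, Ivd was called as the only member.

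Taking all 15 BAT libraries in one model, the main effect of CR (the mean of its effects in sedentary and trained mice, which share these libraries with the pairs above) had 5 members higher and none lower, while 15.9% of 13922 genes were higher and 17.5% lower. They were Bcat2 at 0.55 (SE 0.11, adjusted p = 0.00183), Ivd at 0.26 (adjusted p = 0.0157), Hibch at 0.18 (adjusted p = 0.00607), Hibadh at 0.18 (adjusted p = 0.0171) and Bckdha at 0.17 (adjusted p = 0.0249). The aminotransferase thus moved most, and the other 4 rose by smaller amounts, from 12.3% for Bckdha. Dbt, at -0.21 (adjusted p = 0.0513), fell just short in the other direction, and Bckdk was at -0.11 (adjusted p = 0.165). Bckdhb, Ppm1k and Mccc1 were within 0.05 of zero. Of the chains of the complex, Bckdha was higher by the test, Dbt had a negative value without a call and Bckdhb was near zero. Whether these genes differed from one another in their response was not tested. With library totals alone as the scale, Bckdha, Ivd and Hibadh kept their sign without a call, and Bckdk (-0.15, adjusted p = 0.036) and Dbt (-0.25, adjusted p = 0.021) were called lower. Brown fat marker genes moved in the same comparison, with 5 of 8 lower and 1 higher, and their sum ran from 6619 to 7711 CPM in control, from 4499 to 5285 in CR, from 5714 to 6646 in EX and from 3490.1 to 4907 in CREX libraries. All 5 macrophage marker genes were lower too (median log2 fold change -0.53), with sums of 32.8 to 35.9 CPM in control, 18.7 to 30.8 in CR, 36.3 to 56.1 in EX and 19.4 to 37.4 in CREX libraries. Of 5 endothelial marker genes 2 were lower, with sums of 299 to 333 CPM in control, 219 to 274 in CR, 265 to 311 in EX and 223 to 263 in CREX libraries. Of the 8 mitochondrial genes 2 were higher and 1 lower, and with their score as a covariate 5 members still passed. The part of these cell types in the BAT member values was not tested.

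The libraries behind these main effects spread unevenly. Bckdha was at 396, 400.0 and 419.8 CPM in control, 446, 506, 461 and 419 in CR, 367, 357, 338 and 428 in EX and 411, 433, 404 and 420.2 in CREX libraries. EX replicate 4 exceeded 3 of the 4 CREX libraries, and CR replicate 4 fell just under the highest control. Ivd in the trained groups was at 169, 202, 173 and 254 CPM in EX and 212, 249, 245 and 236 CPM in CREX libraries, and Hibadh at 322, 326, 294 and 384 against 359, 367, 382 and 358 CPM. For both genes it was again EX replicate 4 alone that reached into or above the CREX range, and this library was also the highest EX library for Bcat2, Bckdhb, Dbt, Ppm1k, Mccc1 and Hibch. The members without a call ranged, over all 15 BAT libraries, from 74.3 to 95.8 CPM for Bckdhb, from 74.6 to 129.9 CPM for Dbt, from 89.8 to 123 CPM for Bckdk, from 11.2 to 18.5 CPM for Ppm1k and from 94.2 to 121 CPM for Mccc1.

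In SkM the same question had the opposite sign for the aminotransferase. Bcat2 was at 53.2, 48.8, 47.9 and 43.7 CPM in control and at 43.0, 34.0 and 36.5 CPM in CR libraries. All CR values lay below all control values, the closest pair by less than 1 CPM, and the log2 fold change of -0.35 (SE 0.12) had an adjusted p of 0.0806. Bckdha was at 159, 149.8, 141 and 142 CPM in control and at 116, 113 and 118 CPM in CR libraries, 2 tight groups without overlap. It fell by 0.35 on the log2 scale (SE 0.10, adjusted p = 0.0492) and was the only member past the test, against 6.29% of 13173 genes higher and 7.67% lower. At an unadjusted p under 0.05 there were 4 members, Bckdha, Bcat2, Hibch and Bckdk, all lower. The shares of all genes above are for the adjusted p, and overlap was not counted over all genes. Hibch was at 29.3, 27.2, 29.4 and 25.7 CPM in control and at 23.0, 22.2 and 24.9 CPM in CR libraries, without overlap (-0.25, adjusted p = 0.119). Bckdhb (0.16) and Hibadh (0.08) had positive signs, and neither passed. The Bckdha call sat at the threshold, and it was lost with RLE size factors, with library totals alone and when any one of 6 of the 7 libraries was left out. Without CR replicate 1, which had the lowest Dbt (13.2 CPM) and Ppm1k (5.05 CPM) of its group, 3 members passed.

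In trained SkM, CREX against EX, all 10 members had negative signs and 3 passed, against 6.96% of 13112 genes lower and 6.62% higher. Bcat2 was at 59.1, 49.4, 50.5 and 50.6 CPM in EX and at 41.7, 40.2 and 31.0 CPM in CREX libraries (log2 fold change -0.48, SE 0.12, adjusted p = 0.0341). Mccc1 was at 27.7, 29.0, 26.4 and 26.2 CPM in EX and at 24.6, 16.8 and 16.7 CPM in CREX libraries (-0.50, SE 0.14, adjusted p = 0.0463). Hibch was at 31.9, 27.2, 26.7 and 29.6 CPM in EX and at 24.1, 20.5 and 21.8 CPM in CREX libraries (-0.38, SE 0.10, adjusted p = 0.0400). None of the 3 overlapped, and for Mccc1 the drop came from CREX replicates 2 and 3, as replicate 1 lay within 2 CPM of EX. Bckdha, Ivd and Bckdk also did not overlap, with adjusted p between 0.0522 and 0.0559. How many of all genes did not overlap was not counted.

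This comparison changed with the 2 CREX libraries low in slow fibre genes. Ppm1k was at 3.74 and 2.42 CPM in them and at 9.32 CPM in CREX replicate 1, and Ivd was at 87.2 and 72.4 CPM against 119 CPM. Left with CREX replicate 1 alone, whose spread was then assumed to be like that of EX, the comparison had Bcat2 at -0.33, Hibch at -0.26 and Mccc1 at -0.15 with no member past the test. Without CREX replicate 1 instead, 9 members passed, and without replicate 2 or replicate 3 none did, nor without any single EX library. DESeq2 on the same libraries called 7. The share of all genes called in these alternative fits is not given here. The slow fibre sum was 374.5 to 2015 CPM in EX and 35.3 to 623 CPM in CREX libraries with no gene at 0, and with the slow fibre score as a covariate no member passed, with Bcat2 at -0.41 (adjusted p = 0.255), Hibch at -0.40 (adjusted p = 0.218) and Mccc1 at -0.28 (adjusted p = 0.408). Over all 18 alternatives Bcat2 lay between -0.56 and -0.32 and Hibch between -0.45 and -0.22, and each passed in 7.

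Over all 14 SkM libraries the main effect of CR had 6 members lower and none higher, while 17.0% of 13610 genes were lower and 16.5% higher. The calls were Bcat2 at -0.41 (SE 0.09, adjusted p = 0.00206), Bckdha at -0.40 (SE 0.08, adjusted p = 0.00162), Bckdk at -0.32 (adjusted p = 0.00777), Mccc1 at -0.32 (adjusted p = 0.00842), Hibch at -0.32 (adjusted p = 0.00266) and Ivd at -0.30 (adjusted p = 0.0235). For Bcat2, Bckdha and Hibch no library with CR reached any library without it, but how many of all genes were separated in this way was not counted. The lower members thus took in the aminotransferase, a chain of the complex, its kinase and steps of both the leucine and valine routes. Ppm1k (-0.58, adjusted p = 0.0733) and Dbt (-0.39, adjusted p = 0.0727) had larger or similar values with wider errors, and Bckdhb (0.02) and Hibadh (-0.07) were near zero. No fold exceeded 1.5 among the called members. Without CREX replicates 2 and 3, Bcat2 (-0.36, adjusted p = 0.024), Bckdha (-0.27, adjusted p = 0.032) and Hibch (-0.27, adjusted p = 0.041) still passed. Bckdk was at 196, 172, 161 and 161 CPM in control, 162, 128 and 127 in CR, 162, 174, 157 and 161 in EX and 144, 122 and 121 in CREX libraries, so that CR replicate 1 alone lay among the freely fed libraries. Ivd was at 129.8, 118, 112 and 116 CPM in control, 109.7, 119.9 and 114 in CR, 151, 135, 136 and 121 in EX and 119, 87.2 and 72.4 in CREX libraries. Its groups overlapped in sedentary mice, and its low values were those of CREX replicates 2 and 3. Dbt ranged from 19.9 to 25.4 CPM without CR and from 9.48 to 24.8 CPM with it, and Ppm1k from 7.59 to 11.4 CPM and from 2.42 to 9.47 CPM. With library totals alone the median of all genes shifted by 0.15, and only Bcat2 (-0.27, adjusted p = 0.012) and Bckdha (-0.25, adjusted p = 0.025) passed, while Hibadh changed sign to 0.08.

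**Figure D3:**
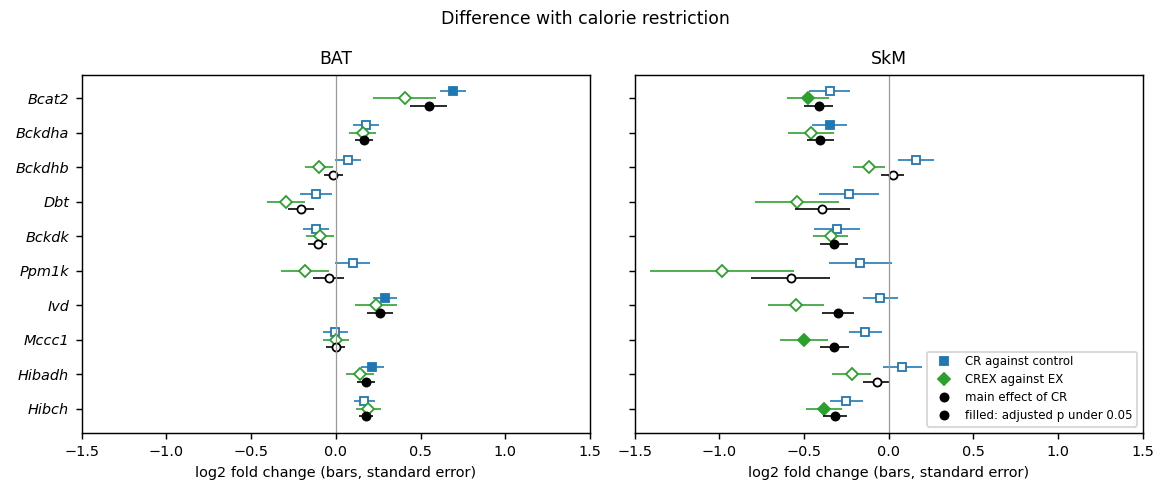
Log2 fold change with CR and its standard error for each member, in sedentary mice (squares), in trained mice (diamonds) and as the main effect over all libraries of the tissue (circles), with filled symbols where the adjusted p was under 0.05. Bcat2 lies at 0.55 in BAT and at -0.41 in SkM as a main effect, and Dbt and Bckdk lie below zero in both tissues.

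Whether the tissues differed in their response to CR was tested directly, as the BAT minus the SkM log2 fold change. In sedentary mice the difference was 1.05 for Bcat2 (SE 0.14, adjusted p = 0.000514), 0.53 for Bckdha (SE 0.13, adjusted p = 0.0226) and 0.43 for Hibch (SE 0.12, adjusted p = 0.0353), and 3.93% of 14369 genes were higher and 3.65% lower. In trained mice it was 0.89 for Bcat2 (adjusted p = 0.0420), 0.62 for Bckdha (adjusted p = 0.0354), 0.58 for Hibch (adjusted p = 0.0212) and 0.79 for Ivd (adjusted p = 0.0472), and 3.03% of 14410 genes were higher and 2.55% lower. No member passed in the negative direction in either. The difference for Bcat2 in sedentary mice passed in all 21 alternatives, between 0.87 and 1.16, while Bckdha passed in 17 and Hibch in 11 of them. Both were lost with library totals alone, under which the median gene moved by -0.18. In trained mice Hibch passed in 19 of 22 alternatives, Bckdha in 9, Bcat2 in 8 and Ivd in 7. No member passed there with library totals alone (median gene -0.24) or without SkM CREX replicates 2 and 3, where Bcat2 was at 0.75 with 1 CREX library left in SkM.

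The kinase and phosphatase set the activity of the complex, so the ratio of their CPM was taken in each library as a description without a test. In BAT it ran from 5.71 to 9.67 and the groups overlapped, with medians of 8.62 in control, 7.45 in CR, 8.18 in EX and 8.04 in CREX. In SkM it was 18.2 to 21.4 in control, 14.6 to 21.2 in EX, 13.4, 14.6 and 32.1 in CR and 15.4, 32.8 and 50.2 in CREX. Bckdk transcripts were therefore in greater excess over Ppm1k in SkM than in BAT in every library, and the 3 highest ratios were those of SkM CR replicate 1 and CREX replicates 2 and 3. These are the libraries with the lowest Ppm1k (5.05, 3.74 and 2.42 CPM) and, together, the lowest mitochondrial scores of SkM.

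**Figure D4:**
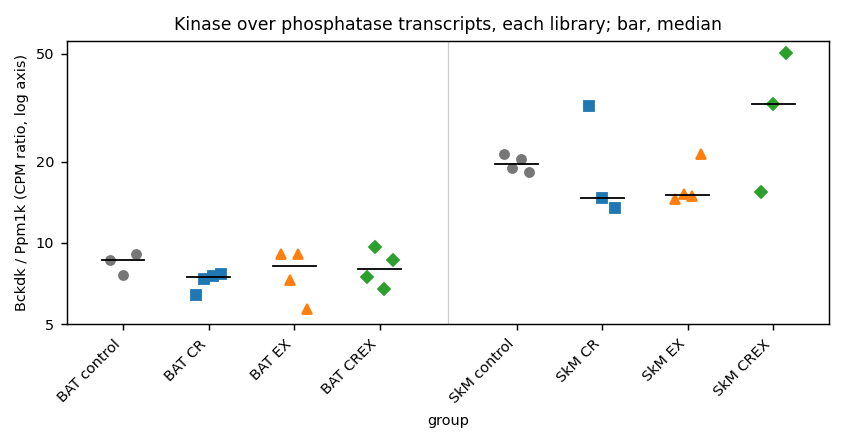
Ratio of Bckdk to Ppm1k CPM in each library (points) on a log axis, with the group median (line), for BAT and SkM. All BAT libraries lie below 10 and all SkM libraries above 13, and 3 SkM libraries under CR or CREX lie above 30.

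Exercise training did not bring any member past the test. In BAT, EX against control called 0 of 13407 genes (0%) at an adjusted p under 0.05 and 972 at an unadjusted p under 0.05, none of them a member, and CREX against CR called 1 of 13112 genes (0.00763%). In SkM, EX against control called 12 of 12907 genes (0.0930%), and CREX against CR called 0 of 13068 (0%) with 477 at an unadjusted p under 0.05. The main effect of EX called 0.0215% of genes in BAT and 0.0294% in SkM, and the interaction of CR and EX called 0% in both, with 800 genes in BAT and 669 in SkM at an unadjusted p under 0.05. DESeq2 on the same libraries called no member in any of these comparisons. The lowest adjusted p of a member by edgeR was 0.396, for Bckdha in the BAT main effect of EX (-0.12). The lowest unadjusted p belonged to Bcat2 in BAT, which was lower in every CREX than in every CR library (log2 fold change -0.24, unadjusted p = 0.00639, adjusted p = 0.473 by edgeR). Hibadh in the same comparison (-0.15), Mccc1 in SkM of EX against control (0.18) and Bckdhb in SkM of CREX against CR (-0.22) did not overlap either, with adjusted p of 0.602, 0.699 and 0.999. Overlap was not counted over all genes here either. In SkM all 10 members had a negative interaction, with a median of -0.27 against 0.01 over all genes, and the lowest unadjusted p was 0.0214 for Ivd (-0.48, adjusted p = 0.941). Without SkM CREX replicates 2 and 3, 5 members had a negative and 5 a positive interaction, with a median of -0.01, while without CREX replicate 1 all 10 were negative and 2 were called. With either the slow fibre or the mitochondrial score as a covariate 7 were negative. No gene of the wider list passed by edgeR in any of these comparisons of exercise either, and DESeq2 called at most 1 in each.

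Genes around the members were taken from the wider list. In BAT under CR, 5 of 24 tested genes rose and none fell by edgeR, against 9.99% and 10.9% of all genes. DESeq2 on the same libraries called 8, among them Mcee (54.3 CPM in control, 46.5 CPM in CR) and Ppara (318 and 157 CPM), both lower. Slc7a8, a carrier of large neutral amino acids, rose from 3.06 to 8.05 CPM (log2 fold change 1.40, adjusted p = 0.000785), Klf15, a transcription factor known to act on amino acid breakdown genes, from 33.6 to 63.7 CPM (0.92, adjusted p = 0.000956), and Hsd17b10, a dehydrogenase of isoleucine breakdown, from 136 to 266 CPM (0.97, adjusted p = 0.00174). In CREX against EX of BAT, Hsd17b10 rose (0.68, adjusted p = 0.0116) and Mcee, methylmalonyl-CoA epimerase, fell (-0.28, adjusted p = 0.0466). For the BAT main effect of CR 9 of 25 rose and 4 fell, against 15.9% and 17.5% of all genes. Hsd17b10 was at 0.83, Klf15 at 0.57 and Slc43a1, a neutral amino acid carrier, at 1.59, while Mcee was at -0.25, Ppara, a nuclear receptor of fatty acid oxidation, at -0.78 and Mccc2, the partner subunit of Mccc1, at -0.16 (adjusted p from 2.92e-05 to 0.0235). The carboxylase thus had a lower Mccc2 beside a Mccc1 at -0.00.

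In SkM, Slc7a8 and Klf15 rose as well. Under CR in sedentary mice Slc7a8 went from 10.9 to 31.5 CPM (1.53, adjusted p = 7.19e-05), Klf15 from 42.0 to 78.5 CPM (0.91, adjusted p = 0.00257) and Slc3a2, the heavy chain that partners such carriers, from 20.9 to 29.1 CPM (0.48, adjusted p = 0.0216), while Pcca fell from 33.9 to 25.5 CPM (-0.40, adjusted p = 0.0175). The same 4 genes passed in CREX against EX, with log2 fold changes of 1.29 for Slc7a8, 1.10 for Klf15, 0.60 for Slc3a2 and -0.48 for Pcca. For the main effect 3 of 25 rose and 5 fell, against 16.5% and 17.0% of all genes. By smallest p, the falling ones began with Pcca (-0.44), Acat1 (-0.32) and Dld (-0.27). Acat1 encodes the thiolase at the end of the isoleucine route, and Dld the shared E3 subunit of the complex. Auh and Mcee were the others called lower, so Mcee was lower for the main effect of CR in both tissues. Klf15 was thus called higher for the main effect of CR in both tissues. In BAT of trained mice it was at 44.7 CPM in EX and 52.2 CPM in CREX, without a call. Its part in the member values was not tested. Of the wider list only Dld passed the test of the tissue difference in trained mice (0.54, adjusted p = 0.0392). In sedentary mice none of 25 did by edgeR, with 10 at an unadjusted p under 0.05, and DESeq2 called 4. The shares of all genes for these counts are not given here.

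Across the 15 BAT libraries the genes whose log2 level followed the mean standardized level of the members most closely, among 6828 genes at 10 CPM or more, were Aldh4a1 (r = 0.95), Pccb (0.91), Acad8 (0.89), Aldh6a1 (0.89) and Kyat3 (0.88). Aldh4a1 belongs to proline breakdown, and Acad8 and Aldh6a1 to the valine route. Across the 14 SkM libraries, among 6287 genes, they were Uqcrc1 (0.97), Atp5sl (0.97), Uqcrc2 (0.97), Fndc5 (0.97) and Ndufa10 (0.96), of which Uqcrc1, Uqcrc2 and Ndufa10 encode respiratory chain subunits. These correlations describe libraries that share their groups and the 2 apart in SkM. The mean correlation of a member with the other 9 was 0.29 for Bckdhb and between 0.57 and 0.76 for the rest in SkM, and between -0.17 for Bckdk and 0.50 for Ivd in BAT.

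The correlation with the mitochondrial score over the 14 SkM libraries was highest for Mccc1 (r = 0.98), Ivd (0.92), Ppm1k (0.91) and Bckdha (0.89) and lowest for Bckdhb (0.33), while over the 15 BAT libraries it ran from 0.01 for Bckdk to 0.80 for Mccc1. The sum of the 8 mitochondrial genes in SkM was 7793 to 8510 CPM in control, 7785 to 7877 CPM in CR, 8339 to 9422 CPM in EX and 6063 to 8823 CPM in CREX libraries, none at 0, and 3 of the 8 genes fell with CR as a main effect. With the mitochondrial score as a covariate no member passed for the SkM main effect of CR, where Bcat2 was at -0.35 (adjusted p = 0.085) and Bckdha at -0.22 (adjusted p = 0.13), while Mccc1 moved from -0.32 to -0.08 and Ppm1k from -0.58 to 0.04. Except for CREX replicate 1, every CR and CREX library scored below every control and EX library. The covariate fit can therefore hardly tell the score from CR. In the same comparison all 5 endothelial marker genes fell, with sums of 213 to 276 CPM in control, 132 to 176 CPM in CR, 216 to 268 CPM in EX and 92.7 to 194 CPM in CREX libraries. All 6 hepatocyte genes rose by the same test, with sums of at most 6.75 CPM in control, 41.0 to 231 CPM in CR and at most 1.81 CPM in EX libraries, and 5 of the 6 genes were at 0 in at least 1 SkM library. Only CREX replicate 1 was high among the trained restricted libraries, at 50.6 CPM against 0.369 and 0.555 CPM in replicates 2 and 3. The part of these cell types in the member values was not tested.

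**Figure D5:**
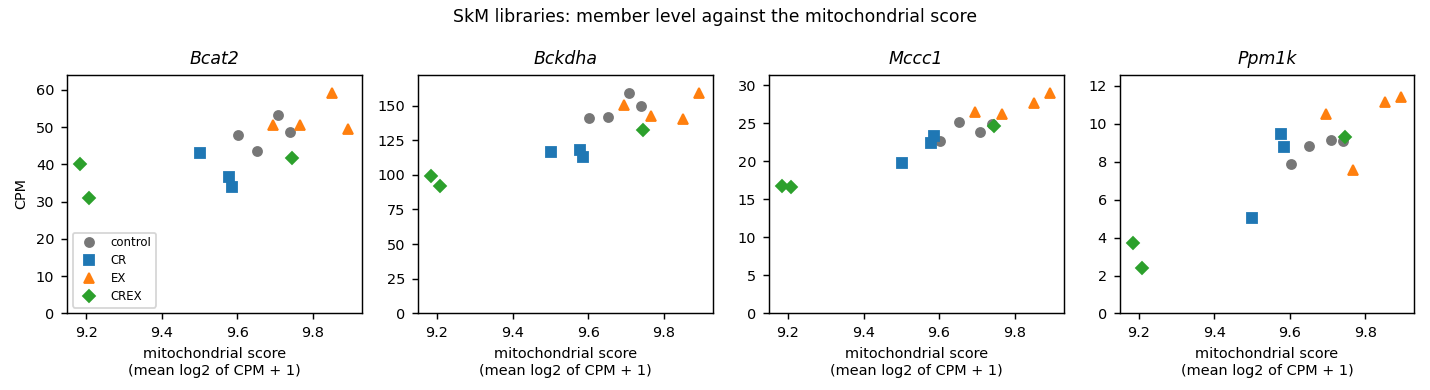
CPM of Bcat2, Bckdha, Mccc1 and Ppm1k in each SkM library against its mitochondrial score (mean log2 of CPM + 1 over 8 genes), with one symbol per group. CREX replicates 2 and 3 lie at scores of 9.18 and 9.21, left of all other libraries, and Mccc1 lines up along the score. Bcat2 of every CR and CREX library lies below that of every control and EX library. Of the CR and CREX libraries only CREX replicate 1, at 9.75, has a score above the lowest of control and EX (9.60).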

How the data were processed

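RNA from BAT and gastrocnemius was sequenced on a BGIseq500 (150 bp paired-end). The authors trimmed reads, aligned them to mm10 with STAR (2.7.10a in the submitters' processing notes) and quantified genes by RSEM. The deposited table holds its expected counts for each gene symbol, not normalized. They were rounded to whole counts. Symbols turned into dates (27) and duplicated symbols (2) were kept and are no members. Annotation and strand setting are not given in the sources used here.

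Each comparison was fitted with edgeR (4.0.16) on its own libraries, with filterByExpr, TMM factors, robust quasi-likelihood tests and Benjamini-Hochberg adjustment over all genes tested. A gene passed at an adjusted p under 0.05, and a DEG also needed a fold above 1.5. Overlap of groups was looked at for the members and the wider list only, so no share over all genes stands beside it. SE is the log2 fold change over the root of F. Over 17 comparisons, main effects and interactions used all libraries of a tissue, and tissue comparisons normalized both tissues together. The smallest level that 3 counts can show was 0.120 to 0.143 CPM, for counting error only. Loci are from GENCODE (GRCm38) and promoter windows from RefSeq (GRCm38.p6).

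Alternatives were DESeq2 (1.42.0) on the same libraries or all groups, RLE factors, other filters (none, or 10 counts in every library), a fit on all groups, a replicate block, marker scores as covariates and each library left out. Library totals alone, the mitochondrial score and the fits without the libraries that stood apart were added after seeing the data. Named genes were all members, up to 3 wider pathway genes in each direction by smallest p, and the 5 genes most alike the members in each tissue. Members and lists were chosen with earlier results of these data known. The fits were tested on simulated data.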

Additional observations from a re-analysis of the deposited data

Results flagged for a closer look

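For 4 of 50 combinations of member and group of 4 libraries, 1 library stood apart from the other 3 by Dixon's criterion, and chance alone flags about 1 in 20 groups. These were Bcat2 in SkM EX replicate 1 (59.1 CPM), Dbt (74.6 CPM) and Mccc1 (95.5 CPM) in BAT CREX replicate 1, and Hibadh in BAT CR replicate 2 (432 CPM). Both low values of BAT CREX belonged to 1 library.

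The response to CR differed between the tissues, BAT minus SkM by an interaction test in edgeR, for Bcat2 in sedentary (1.05) and trained mice (0.89), for Bckdha (0.53 and 0.62), for Hibch (0.43 and 0.58) and for Ivd in trained mice (0.79), as log2 values. In sedentary mice Bcat2 passed in all 21 alternatives, Bckdha in 17 and Hibch in 11. In trained mice Hibch passed in 19 of 22, Bckdha in 9, Bcat2 in 8 and Ivd in 7, and none passed without SkM CREX replicates 2 and 3.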

How the results depend on the processing

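Counts of members past the test moved by more than 1.5 times as follows, without the share of all genes in each alternative. For BAT CR against control (3), the count was 1 with the fold minimum, the replicate block, 1 edgeR fit on all 4 groups, the mitochondrial covariate or without the libraries high in muscle genes, and 1 to 3 with a library left out. For BAT CREX against EX (0), it was 2 with DESeq2 on all 4 groups or the muscle covariate and 1 with the fit on all groups, and 0 to 1 with a library left out. For SkM CR against control (1), it was 3 with the replicate block and 0 with the fold minimum, RLE factors, library totals, no filter, the fit on all groups or either covariate, and 0 to 3 with a library left out. For SkM CREX against EX (3), it was 7 with DESeq2 on either set, 5 with no filter or the fit on all groups, 0 with the fold minimum, library totals, the replicate block, either covariate or without the libraries low in slow fibre genes, and 0 to 9 with a library left out. The BAT main effect of CR (5) had 0 with the fold minimum and 3 to 6 with a library left out, 3 of them without control replicate 2. The SkM main effect of CR (6) had 0 with the fold minimum or the mitochondrial covariate, 2 with library totals, 3 without the 2 CREX libraries and 5 to 8 with a library left out. The tissue difference in sedentary mice (3) had 1 with the fold minimum, library totals, no filter or without the BAT libraries high in muscle genes, and 1 to 3 with a library left out. That in trained mice (4) had 0 with library totals or without the 2 SkM CREX libraries, 1 with the replicate block, and 0 to 7 with a library left out. The SkM interaction (0) reached 2 with a library left out. Ppm1k reversed for the SkM main effect of CR with the mitochondrial covariate (0.0428). The cause was not tested beyond what each alternative leaves out.

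Same-numbered libraries did not deviate together in every pair of any comparison (lowest correlation -0.47, highest 0.50), so the replicate block pairs only a number. It left 4 members for the BAT and 6 for the SkM main effect of CR, 9 for the control tissues and 3 for the tissue difference in sedentary mice, and none where none passed without it. Of 1066 alternative values of members with an unadjusted p under 0.05, 873 kept their sign and side of the threshold, 153 lost and 39 gained a call.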
